A study of Mus musculus with 4 samples.

Results

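Complex I (NADH:ubiquinone oxidoreductase) is the entry point of the respiratory chain, and the RNA of its nuclear-encoded subunits was compared between 4T1 cells of high and low mitochondrial membrane potential (MMP). The members were 35 genes chosen by name, the Ndufs, Ndufv, Ndufa, Ndufb and Ndufc subunit genes, and all 35 were found among the 20197 genes of the table. 4T1 is a mouse mammary tumor line that metastasizes to the lung, and its wild-type cells carried MitoSpy Red, taken up at 20 nM, a dye that enters mitochondria according to their membrane potential. The brightest 5% (high MMP) and the dimmest 5% (low MMP) were sorted, and RNA from 100000 cells per sample gave 2 high MMP and 2 low MMP libraries. Both groups came from the same stained and sorted line and differed by the sort gate, and no unsorted or unstained cells served as a reference. Titles number the samples 1 and 2 in each group but do not tie a number to a culture or day. By the paper's legend, the 2 samples per group stand for experiments done separately, so p-values measure the spread between experiments. Whether high and low MMP samples with the same number came from the same experiment was not stated. The paper asked how metabolism differs between metastasis-initiating and other tumor cells, and whether this may influence gene expression that enables metastasis. The comparison here asks whether complex I subunit RNA differed with MMP.

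Complex I oxidizes NADH in the mitochondrial matrix, passes the electrons along a chain of iron-sulfur clusters to ubiquinone, and pumps protons across the inner membrane, which builds part of the membrane potential that the dye reports. Its matrix arm has an N module, where NADH is oxidized, and a Q module, where ubiquinone is reduced. Its membrane arm has a proximal and a distal module, whose proton-pumping subunits are encoded by mitochondrial DNA. Catalytic core subunits carry the cofactors and channels, and the accessory subunits around them are needed for assembly and stability.

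The libraries held 22591970 to 26395015 reads assigned to genes, and the values below are normalized reads, scaled by the authors to 20000000 per library. All 4 epithelial markers were abundant, with *Krt8* at 13147 to 19554, *Krt18* at 13139 to 19276, *Epcam* at 3647 to 4619 and *Cdh1* at 3903 to 5426 normalized reads. The leukocyte marker *Ptprc* lay at 0 to 1.77 and the endothelial markers *Pecam1* and *Cdh5* at 0 to 5.30. *Cd3e*, *Itgam* and *Kdr* were looked up and not found by symbol among the measured genes. Of the fibroblast markers, *Pdgfrb* and *Dcn* lay at 1.74 to 10.5, whereas *Pdgfra* lay at 319 and 363 in high MMP and 536 and 589 in low MMP cells (unadjusted p = 0.0027, adjusted p = 0.472, limma). The part of these markers in the results below was not tested.

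No difference in the RNA of single complex I subunits between high and low MMP cells was detectable with these 4 libraries. Over the 35 members the median difference (high minus low MMP, log2(value + 1)) was 0.01, with 20 members above 0 and 15 below. Over the 12902 genes averaging 10 or more normalized reads (called expressed genes below) the median was -0.03. In 27 of the 35 members the difference was smaller than 0.1 in size, and the range ran from -0.60 for *Ndufb2* to 0.21 for *Ndufa1*. By limma with Benjamini-Hochberg adjustment, 0 of 35 members passed an adjusted p of 0.05, beside 0 of all 20197 genes (0%). At an unadjusted p under 0.05 there were again 0 of 35 members, while 9.96% of all genes lay under that value. Neither count tool called a member at an adjusted p of 0.05. Of all 20197 genes, edgeR without a block called 0, edgeR blocked by replicate number 0.525% and DESeq2 0.584%. Beside shares this small, 0 of 35 does not set the members apart from other genes. All 35 intervals of 95% included 0. Leaving out *Ndufb2*, their bounds ran from -0.57 to 0.58, which is the size of difference that 2 samples per group left within the error. In bulk RNA, fewer cells with a transcript and less of it per cell cannot be told apart. Values scaled to the same library total compare shares of the reads, and the amount of RNA per cell was not compared.

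**Figure D1:**
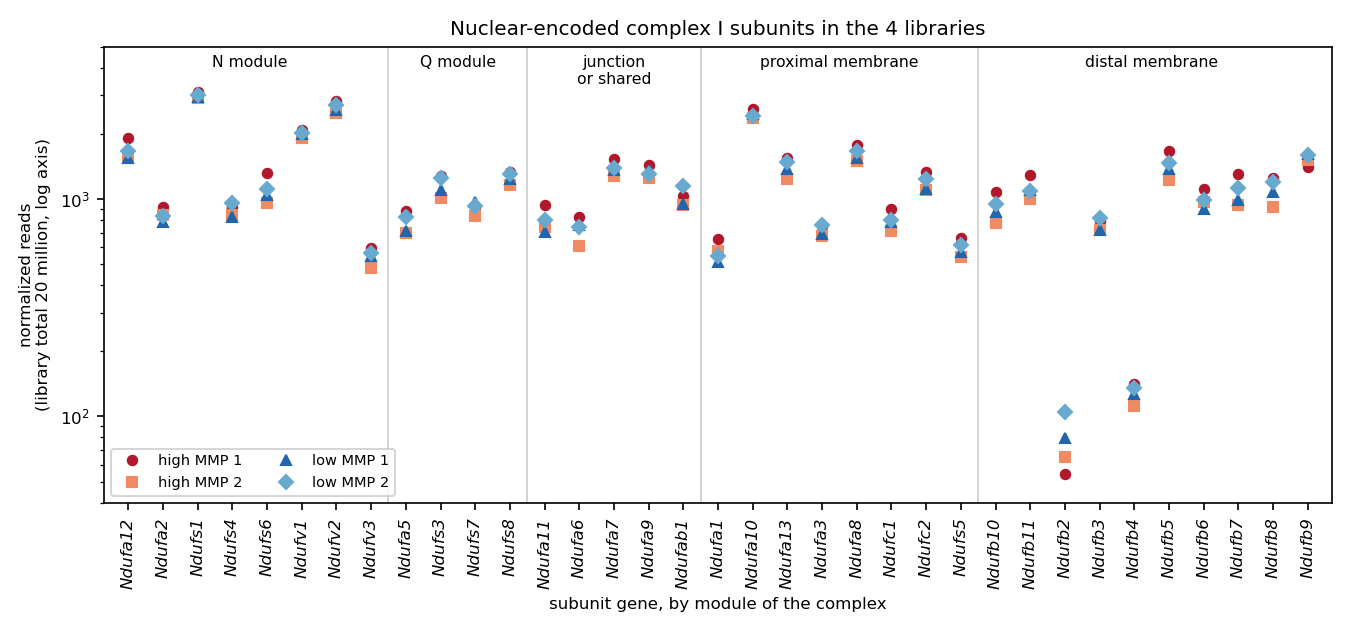
Normalized reads (log axis, library total 20000000) of the 35 subunit genes, grouped along the horizontal axis by module of the complex, with 1 point for each of the 4 libraries. For most genes high MMP 1 (dark red circles) is the uppermost point and high MMP 2 (orange squares) the lowest, with both low MMP libraries (blue) between them; *Ndufb2* and *Ndufb4* lie far below the others.

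**Figure D2:**
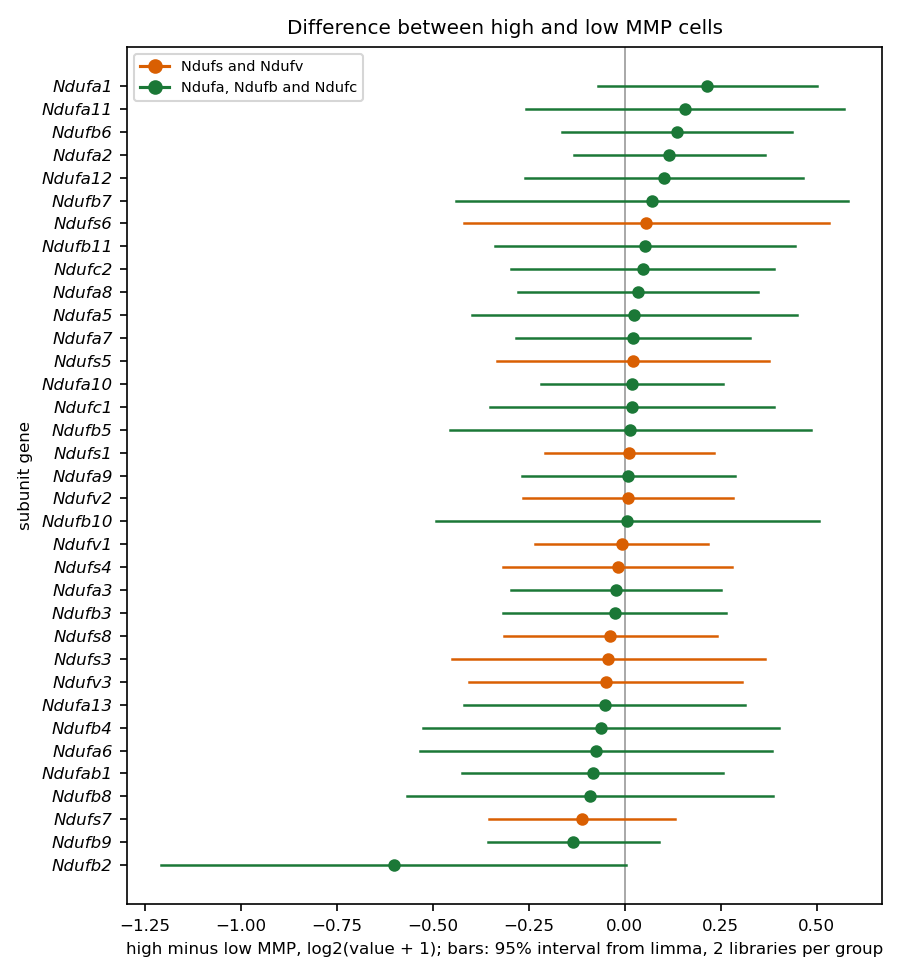
Difference between high and low MMP cells on the log2(value + 1) scale for each of the 35 subunit genes, with the 95% interval from limma over 2 libraries per group. All intervals include 0, and *Ndufb2* is the gene farthest from 0 at -0.60.

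The 6 catalytic core subunits had differences between -0.11 and 0.01. *Ndufv1*, the subunit that binds NADH and the flavin cofactor, was at 2081 and 1911 normalized reads in high MMP 1 and 2 and at 1996 and 2013 in low MMP 1 and 2. *Ndufv2*, an iron-sulfur subunit beside it, was at 2821 and 2489.6 in high MMP and at 2554 and 2719 in low MMP cells. *Ndufs1*, which holds further clusters of the chain, was at 3110.4 and 2911 in high MMP and at 2954 and 3015 in low MMP cells. For all 3 N module core genes the low MMP values lay between those of high MMP 1 and high MMP 2, and the differences were -0.01 for *Ndufv1* (SE 0.08), 0.01 for *Ndufv2* (SE 0.10) and 0.01 for *Ndufs1* (SE 0.08).

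The 3 core genes of the Q module had differences below 0, and none passed the test. *Ndufs3*, a core subunit without a cofactor, was at 1278 and 1013 normalized reads in high MMP and at 1099 and 1250 in low MMP cells. *Ndufs8*, an iron-sulfur subunit of the path to ubiquinone, was at 1324 and 1157 in high MMP and at 1234 and 1307 in low MMP cells. *Ndufs7*, which carries the last cluster before ubiquinone, was at 918 and 835 in high MMP and at 966 and 927 in low MMP cells. Of the 6 core genes, *Ndufs7* alone had both high MMP libraries below both low MMP libraries, with a difference of -0.11 (SE 0.09, unadjusted p = 0.273, adjusted p = 0.788, limma). *Ndufs3* differed by -0.04 (SE 0.15) and *Ndufs8* by -0.04 (SE 0.10).

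Core and accessory subunits both had medians close to 0, and the difference between the lists was not tested. The 10 Ndufs and Ndufv genes had a median difference of -0.01 and the 25 Ndufa, Ndufb and Ndufc genes one of 0.02. Names do not match function exactly, since *Ndufs4*, *Ndufs5*, *Ndufs6* and *Ndufv3* are accessory subunits. With those 4 moved, the 6 catalytic core genes had a median of -0.02 and the 29 accessory genes one of 0.02. By module, the median was 0.01 for the N module (8 genes), -0.04 for the Q module (4 genes) and 0.02 for the proximal membrane module (8 genes). It was -0.01 for the distal membrane module (10 genes) and 0.01 for the other 5 genes, grouped as lying at a junction or shared between modules.

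Among the accessory genes, *Ndufa1* had the largest positive difference. This small membrane protein, needed for assembly of the membrane arm, was at 655 and 576 normalized reads in high MMP and at 514 and 544 in low MMP cells. Both high MMP values were above both low MMP values, by 0.21 (SE 0.10, unadjusted p = 0.106, adjusted p = 0.631, limma). *Ndufa2*, an accessory protein of the N module, was at 918 and 841 in high MMP and at 785 and 837 in low MMP cells. Its groups also did not overlap, by a narrow margin, with a difference of 0.12 (SE 0.09). These 2 of the 35 members were the only ones with both high MMP libraries on top, beside 14.3% of expressed genes.

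Among the 5 largest positive differences were 3 further accessory genes, and in each the groups overlapped. *Ndufa11*, a membrane subunit, was at 943 and 743 in high MMP and at 706 and 799 in low MMP cells, differing by 0.16 (SE 0.15). *Ndufb6*, of the distal membrane module, was at 1106 and 964 against 895 and 986, differing by 0.14 (SE 0.11). *Ndufa12*, which takes the place of an assembly factor late in the assembly of the N module, was at 1912 and 1541 against 1542 and 1657, differing by 0.10 (SE 0.13). A processed pseudogene of it, *Gm15920*, holds 228 of the 1036 stretches of 75 bases (the read length) found in *Ndufa12* transcripts and was itself counted at 282 to 330 normalized reads, 18.6% of the mean of *Ndufa12*. Summed with it, *Ndufa12* differed by 0.09.

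At the other end, *Ndufb2* and *Ndufb9* had the lowest differences, and with *Ndufs7* they made up the 3 of 35 members with both high MMP libraries below both low MMP libraries, beside 23.7% of expressed genes. Both are distal membrane subunits, and both share a coding exon with a readthrough transcript annotated as a gene of its own on the same strand (*Gm42420* and *Gm49356*, neither with values in the table). The shared exons are shown because reads inside them fit both genes, and how the counting assigned such reads was not stated. The *Ndufb2* exon, the second of 4, lies at chr6:39596451-39596595 (plus strand, GRCm38) and holds 145 of the 455 bases of its transcript. The *Ndufb9* exon, also the second of 4, lies at chr15:58936268-58936460 (plus strand) and holds 193 of 704 bases.
Ndufb2: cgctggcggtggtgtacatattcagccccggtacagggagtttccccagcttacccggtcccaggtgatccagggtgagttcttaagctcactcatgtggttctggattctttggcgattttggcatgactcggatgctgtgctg
Ndufb9: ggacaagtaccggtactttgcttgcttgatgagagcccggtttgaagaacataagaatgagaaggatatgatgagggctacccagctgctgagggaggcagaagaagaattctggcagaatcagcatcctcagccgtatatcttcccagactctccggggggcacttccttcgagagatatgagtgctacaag

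*Ndufb2* (chr6:39592574-39603382) was at 54.6 and 65.3 normalized reads in high MMP 1 and 2 and at 79.3 and 104 in low MMP 1 and 2, from 72, 78, 91 and 118 reads. Every high MMP value was below every low MMP value, and the 2 low MMP libraries were themselves far apart. The difference was -0.60 (SE 0.22, interval -1.21 to 0.004, unadjusted p = 0.0511, adjusted p = 0.505, limma), the smallest p of the 35 members. It passed an unadjusted 0.05 with a pseudocount of 0.1, when only expressed genes were fitted, and in edgeR with the replicate block, and passed the adjusted threshold in none of the alternatives. *Ndufb9* (chr15:58933756-58939488), a protein of the LYR family that binds an acyl carrier protein, was at 1397 and 1516 in high MMP and at 1610.15 and 1585 in low MMP cells. Its groups did not overlap, and the difference was -0.13 (SE 0.08, unadjusted p = 0.174, adjusted p = 0.711, limma).

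*Ndufb8*, *Ndufab1* and *Ndufb4* also had differences below 0, with overlapping groups. *Ndufab1*, the mitochondrial acyl carrier protein, which also serves fatty acid synthesis, was at 1029.7 and 939 normalized reads in high MMP and at 950.2 and 1143 in low MMP cells, differing by -0.08 (SE 0.13). *Ndufb8*, a membrane subunit whose protein is a common marker of assembled complex I, was at 1243 and 915 against 1082 and 1193, differing by -0.09 (SE 0.18). *Ndufb4* was at 140.2 and 111 against 126 and 135, differing by -0.06 (SE 0.17).

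What the members did share was an order of the libraries. High MMP 1 was the highest library in 28 of 35 members and high MMP 2 the lowest in 28, and in 24 members both held, so that the high MMP libraries enclosed both low MMP libraries. The same order occurred in 13.6% of expressed genes. The median gap between the high MMP libraries (high MMP 1 minus high MMP 2) was 0.25, positive in 33 of 35 members, and the median gap between the low MMP libraries (1 minus 2) was -0.10. In 32 of 35 members the gap between the high MMP libraries was larger than the difference between the groups, beside 65.5% of expressed genes.

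The widest gaps were in small accessory proteins. *Ndufb7*, a cysteine-rich protein of the intermembrane space, was at 1301 in high MMP 1 and at 937 in high MMP 2, with 990.3 and 1117 in the low MMP libraries, a gap of 0.47 against a group difference of 0.07. *Ndufb10*, of the same kind, was at 1073 and 774, with 867 and 948 in the low MMP libraries, a gap of 0.47 against a group difference of 0.01. *Ndufs6*, a zinc-binding subunit of the N module, was at 1309 and 956, with 1041 and 1112 in the low MMP libraries, a gap of 0.45 against a group difference of 0.06. *Ndufb5* followed, at 1668 and 1222 with 1371 and 1456, also with a gap of 0.45. In each of these genes both low MMP libraries lay inside the span of the high MMP libraries. The exceptions to the order of the high MMP libraries were again *Ndufb2*, with a gap of -0.25, and *Ndufb9*, with one of -0.12. By group, the median gap was 0.16 for the 6 catalytic core genes, 0.19 for the Ndufs and Ndufv genes, 0.26 for the Ndufa, Ndufb and Ndufc genes and 0.35 for the distal membrane module.

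With this order, the direction of the median depended on the library. Without high MMP 1 the median difference of the 35 members was -0.12, with 3 members above 0, and without high MMP 2 it was 0.13, with 31 above 0. Between libraries of the same number, 32 members were higher in high MMP 1 than in low MMP 1 (median 0.16), and 2 were higher in high MMP 2 than in low MMP 2 (median -0.16).

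Other gene lists showed the same order to differing degrees. Of 39 nuclear genes for subunits of complexes II to V, 24 had high MMP 1 highest and high MMP 2 lowest (median gap 0.30, median group difference 0.03, none called by limma). Of 80 cytosolic ribosomal protein genes (for the ribosomes outside mitochondria), 69 had this order (median gap 0.31, median group difference 0.04). Of 17 complex I assembly factor genes 4 had it, with a median gap of 0.12.

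**Figure D3:**
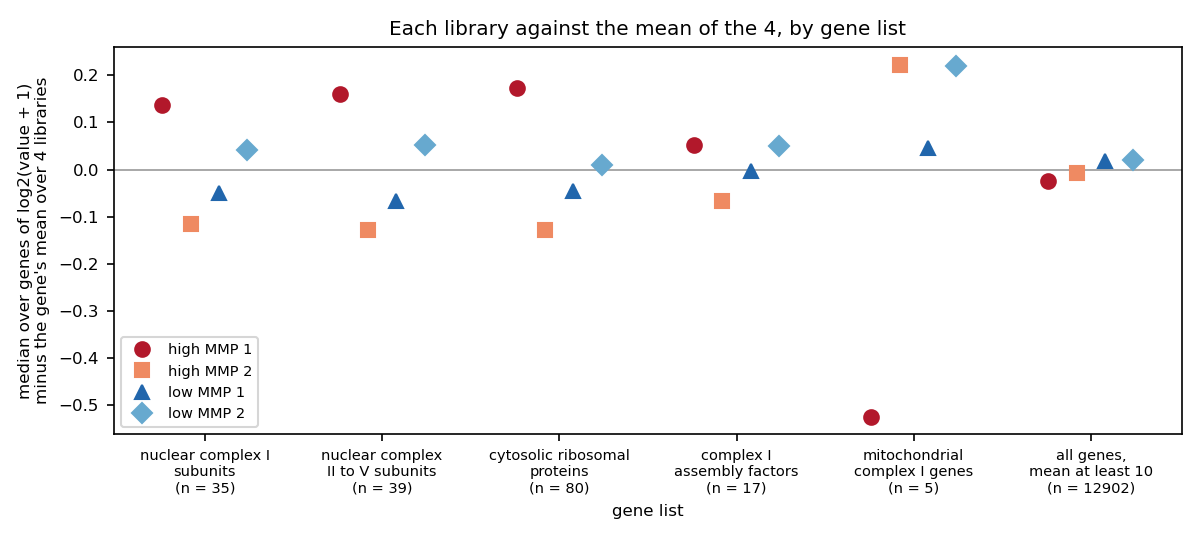
Median over each gene list of log2(value + 1) minus the gene's mean over the 4 libraries, with 1 point per library and the number of genes under each list. High MMP 1 is highest and high MMP 2 lowest for the complex I subunits, the other nuclear respiratory subunits and the ribosomal proteins, whereas high MMP 1 is lowest for the mitochondrial complex I genes.

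The gap moved with transcript length across all genes. Members have short transcripts, from 382 to 2625.5 bases with a median of 782 (median length of the protein-coding transcripts of a gene), beside a median of 2556 over the expressed genes. Among 9686 protein-coding genes averaging 100 or more, the median gap between the high MMP libraries was 0.29 for transcripts under 700 bases, 0.22 from 700 to 1000 bases, 0.14 from 1000 to 1500 bases and 0.07 from 1500 to 2000 bases. It was -0.01 from 2000 to 3000 bases, -0.09 from 3000 to 5000 bases and -0.23 above. High MMP 1 was above high MMP 2 in 613 of 706 genes under 1000 bases (86.8%) and in 1272 of 4343 genes of 3000 bases or more (29.3%).

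The 14 members under 700 bases had a median gap of 0.29, which is the median of all genes of that length. In the longer bins the members' median gap was above that of all genes. It was 0.27 against 0.22 from 700 to 1000 bases (10 members) and 0.31 against 0.14 from 1000 to 1500 bases (5 members). It was 0.12 against 0.07 from 1500 to 2000 bases (2 members) and 0.11 against -0.01 from 2000 to 3000 bases (4 members). The 24 members under 1000 bases had a median gap of 0.29 and the 11 longer members one of 0.14. Set against genes of their own length, 19 of 35 members lay within the middle 50% of gaps, 12 above it and 4 below it. Spearman's correlation of gap with length was -0.455 over the 9686 genes and -0.375 over the 35 members, described without a test since genes of the same 2 libraries are not independent. With the GC content of the transcripts it was -0.0708 over the 9686 genes and 0.291 over the members. For the group difference the median was 0.03 in the genes under 700 bases and -0.04 in those of 5000 bases or more, and its Spearman correlation with length was -0.0769 over the 9686 genes and -0.485 over the 35 members. The part of transcript length in the order of the libraries was not tested beyond these values.

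**Figure D4:**
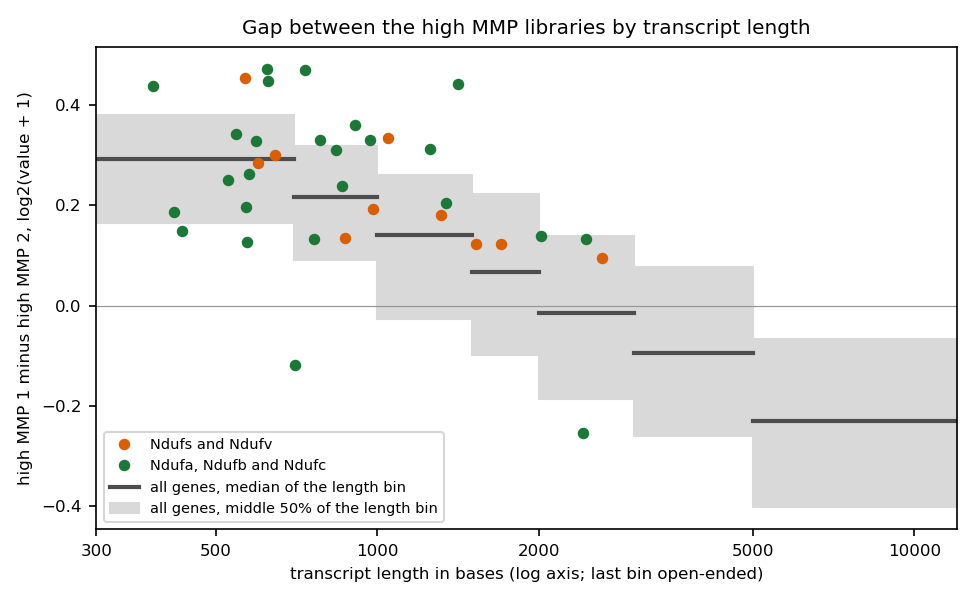
Gap between the high MMP libraries (high MMP 1 minus high MMP 2, log2(value + 1)) against transcript length in bases on a log axis, with points for the 35 members and, for all protein-coding genes averaging 100 or more, the median (line) and middle 50% (grey) of each length bin. The gap falls from 0.29 in the shortest genes to -0.23 in the longest, and 19 members lie inside the grey bands.

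Compared per length, the members had similar levels. RPKM (reads per kilobase of transcript per 1000000 reads) had a median of 64.1 over the members, and 30 of 35 lay within 2-fold of it. *Ndufa7*, an accessory protein of the matrix arm, was highest at 131 as the mean of the 4 libraries (121 to 144), then *Ndufb5* at 114 (97.7 to 133), *Ndufb9* at 108 (99.2 to 114), *Ndufc2* at 103 and *Ndufv2* at 101. The ranges of these neighbours overlapped, so that their order is within the spread of the libraries. The 6 catalytic core genes, whose products stand in equal number in the complex, lay between 52.3 for *Ndufs7* and 101 for *Ndufv2*. *Ndufv1* was at 65.4, *Ndufs8* at 64.1, *Ndufs1* at 57.1 and *Ndufs3* at 55.5. Across the 4 libraries the coefficient of variation had a median of 8.86% over the members, and 5.88% over the catalytic core.

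More than 2-fold under the median lay 4 genes, and *Ndufa7* lay more than 2-fold above it. The lowest were *Ndufb2* at 1.57 (1.13 to 2.165), *Ndufb4* at 6.60 (5.73 to 7.22), *Ndufab1* at 20.7 (19.2 to 23.3) and *Ndufs4* at 26.1 (24.4 to 28.1), none overlapping with the next. *Ndufab1* and *Ndufs4* have long transcripts in the annotation, of 2447.5 and 1698 bases. The value of *Ndufb2* depends on which transcript is made, since its 2 protein-coding transcripts have 455 and 4371 bases. With the shorter one it would be 8.34, still below all members other than *Ndufb4*. In *Ndufb4*, 35.2% of the stretches of 75 bases are also found in other genes, mainly the processed pseudogene *Ndufb4c*, which was counted at 0.837 to 3.03 normalized reads. How reads that fit both were counted was not stated, so this value does not show whether *Ndufb4* lost reads.

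**Figure D5:**
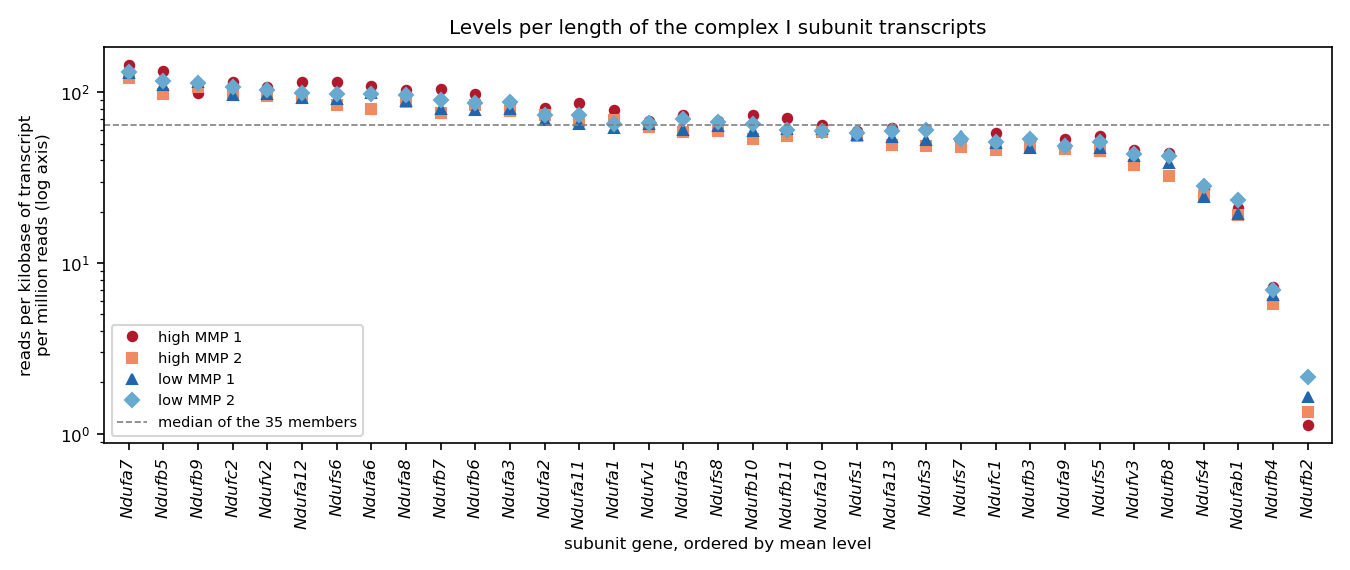
RPKM (log axis) of the 35 members ordered by their mean, with 1 point for each of the 4 libraries and a dashed line at the median of 64.1. Most members lie within 2-fold of the line, and *Ndufs4*, *Ndufab1*, *Ndufb4* and *Ndufb2* fall away at the right.

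Shared sequence touched several members beyond these. Of the 35 genes, 16 share stretches of 75 bases with other genes on either strand, among them *Ndufs3* (28.2%, mainly *Gm12251*), *Ndufb6* (27.8%, *Smim27*), *Ndufa13* (25.6%, *Tssk6*) and *Ndufb9* (20.3%, *Gm49356*), and 6 overlap a gene on their own strand. *Gm12251* was counted at 0.818% of the mean of *Ndufs3* and *Smim27* at 3.84% of that of *Ndufb6*. Other genes that share stretches were counted at more. *Mrpl47* was at 49.4% of the mean of *Ndufb5*, *Rbm10* at 169% of that of *Ndufb11* and *Braf* at 834% of that of *Ndufb2*. These genes overlap the members on the other strand, and 11.7%, 7.67% and 3.54% of the members' stretches were shared. The 17 members without shared stretches and without an overlapping gene on their own strand had a median difference of 0.01 and a median gap of 0.20. The order of libraries described above held in 12 of 17. Some of these 17 overlap a gene on the other strand. Members with shared sequence are uncertain to the extent that the counting could split or drop their reads, which the counts of the other genes do not show.

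The start regions of the members were searched for the letters of factors that act on respiratory genes. RefSeq windows of 300 bases around the start (GRCm38.p6) were found for 32 of the 35 members. On both strands, GCGCATGC (NRF1) was found in 3 of 32, beside 3.05% of 27025 genes, and CCGGAAG (the ETS letters bound by GABP) in 4 of 32, beside 9.93%. AAGATGGC (YY1) was found in 7 of 32 (21.9%), beside 3.19%. At least 1 of the 3 was found in 14 of 32, beside 14.9%. All 7 YY1 matches were on the coding strand, 22 to 38 bases after the start site, and in each the ATG inside the letters was an annotated start codon. The 7 matches are shown with their flanks and the letters in capitals, as the set in which the letters take the same place in the transcript.
Ndufa3 (chr7:3617385-3617412, plus strand): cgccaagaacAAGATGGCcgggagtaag
Ndufa9 (chr6:126849098-126849125, minus strand): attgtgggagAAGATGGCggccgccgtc
Ndufb8 (chr19:44555393-44555414, minus strand): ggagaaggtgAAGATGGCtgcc
Ndufc1 (chr3:51408916-51408943, minus strand): cctgcggaacAAGATGGCgccgtccgta
Ndufs4 (chr13:114388045-114388069, minus strand): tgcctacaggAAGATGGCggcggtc
Ndufs6 (chr13:73328433-73328459, minus strand): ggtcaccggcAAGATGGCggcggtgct
Ndufs7 (chr10:80249463-80249490, plus strand): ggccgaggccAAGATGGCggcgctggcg

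The NRF1 letters were found upstream of the RefSeq start sites of *Ndufa6*, *Ndufa8* and *Ndufa11*, with the first base of the letters at -83, -8 and -60. In *Ndufa11* the letters and their reverse complement overlap, and the other matches are on the reverse strand.
Ndufa6 (chr15:82354357-82354384, minus strand): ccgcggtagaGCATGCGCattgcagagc
Ndufa8 (chr2:36049329-36049356, minus strand): cgctggagacGCATGCGCagatggtacc
Ndufa11 (chr17:56717692-56717719, plus strand): cctgcactgcGCGCATGCgcgcacgcct

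A match is a description of the sequence and not of binding. The gap between the high MMP libraries ran from 0.12 (*Ndufs4*) to 0.45 (*Ndufs6*) over the 7 members with the YY1 letters and from 0.24 (*Ndufa8*) to 0.44 (*Ndufa6*) over the 3 with the NRF1 letters, within the range of the other members. The list of factors that act on respiratory genes held 6 genes, including *Nrf1*, *Gabpa* and *Yy1*. Of these, 0 had an unadjusted p under 0.05 (limma), beside 9.96% of all genes, and the median difference was -0.02. Both high MMP libraries lay below both low MMP libraries in 3 of 6, beside 23.7% of expressed genes. They lay above in 1 of 6, beside 14.3%. The farthest from 0 was *Pprc1*, at 3038 and 3690.4 in high MMP and 3853 and 3731 in low MMP cells, differing by -0.18 (SE 0.12).

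The proteins that build the complex were compared in the same way. Of 18 assembly factor genes 17 were measured, while *Coa1* was not found by symbol, and 0 of 17 had an adjusted p under 0.05. Their median difference was -0.04, with 7 above 0 and 10 below. Both high MMP libraries lay below both low MMP libraries in 5 of 17, beside 23.7% of expressed genes. In 2 of 17 they lay above, beside 14.3% of expressed genes. *Foxred1*, an oxidoreductase needed for complex I assembly, was at 1091 and 1170 normalized reads in high MMP and at 1354 and 1370.4 in low MMP cells. Its groups did not overlap, and it was the 1 of 17 with an unadjusted p under 0.05, beside 9.96% of all genes, at a difference of -0.27 (SE 0.08, unadjusted p = 0.0252, adjusted p = 0.472, limma). *Ndufaf8* had the largest difference in size, at 181 and 162 in high MMP and 210.1 and 208 in low MMP cells (-0.28, SE 0.12, unadjusted p = 0.0728, adjusted p = 0.565, limma).

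The partner subunits encoded by mitochondrial DNA showed the opposite order of the high MMP libraries. Their 7 genes took 0.627% of reads in high MMP 1 and 1.04% in high MMP 2, and 0.945% and 1.07% in low MMP 1 and 2. *mt-Nd1*, which forms the base of the ubiquinone channel, was at 51267 and 79872 normalized reads in high MMP and at 74462 and 88933 in low MMP cells. *mt-Nd4*, a proton-pumping subunit, was at 13679 and 24378 against 23492 and 24318, differing by -0.39 (SE 0.31). High MMP 1 was the lowest library in all 5 of the expressed genes. The median difference of these 5 was -0.31 and their median gap was -0.77, and none had an unadjusted p under 0.05. *mt-Nd3* and *mt-Nd4l* were at 0.758 to 5.86 normalized reads and were not read further. The nuclear members took 0.220%, 0.187%, 0.196% and 0.207% of the reads in high MMP 1, high MMP 2, low MMP 1 and low MMP 2, with the highest share in the library where the mitochondrial genes had their lowest.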

How the data were processed

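The authors aligned paired 75-base reads from stranded mRNA libraries (200 ng RNA) with STAR to mouse transcripts (GRCm38, mm10), and the submitters' processing notes also name HTSeq. Versions and the handling of reads that fit several genes are not given in the sources used here. The deposited values are a normalized signal per gene, which the authors scaled to library size, keeping genes expressed in 2 or more of the 4 samples. Each column summed to 20000000 within rounding and was made of whole multiples of 1 step, so that whole reads were recovered for 100% of values (tolerance 0.01) and served for the count tools. Identifiers were matched to GENCODE M21 (19993 of 20197), and 0 columns belonged to no sample.

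Groups came from the sample titles. log2(value + 1) was tested with limma 3.58.1 (eBayes with trend, R 4.3.3), group as the only factor, Benjamini-Hochberg over all 20197 genes, threshold 0.05. On this scale the change of low genes is understated. Alternatives were edgeR 4.0.16 and DESeq2 1.42.0, other pseudocounts, scalings and filters, a replicate block, and each replicate left out. limma and edgeR were also run on simulated data, with changes much larger than the differences of the members and no gap by transcript length. That run therefore does not show what could be found at the members' size of difference. No block was used, since the study ranked genes by the log2 ratio of classes with no pairing. Same-numbered samples did not deviate together (correlation of deviations -0.421 over 12902 genes). With 2 samples per group this correlation cannot show whether they were paired. The members and the lists were chosen with earlier results of these data known. Members were named by rule: catalytic core, the 5 largest differences each way, the 3 smallest p, the 3 highest and lowest levels per length, and the 3 widest gaps between the high MMP libraries. Of other lists, genes with an unadjusted p under 0.05 (at most 5) and the largest difference were named. Further members were named after their values were seen. Protein sequences were not used here.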

Additional observations from a re-analysis of the deposited data

How the results depend on the processing

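The count of members with an adjusted p under 0.05 was 0 in every alternative run. The count over all genes was 0 as well, except for edgeR with the replicate block (106), DESeq2 (118) and edgeR with the crossed block (733). The count of members at an unadjusted p under 0.05 went from 0 to 1 with a pseudocount of 0.1, with genes of a mean of at least 10, and in edgeR with the replicate block (*Ndufb2* each time). It ranged from 0 to 3 when 1 replicate was left out, with *Ndufa6* without high MMP 1 and *Ndufa1*, *Ndufb9* and *Ndufb11* without high MMP 2. The cause was not tested. The median difference over the members ranged from -0.12 (without high MMP 1) to 0.13 (without high MMP 2), and that of the Ndufs and Ndufv genes from -0.128 to 0.079 by the same omissions. Without low MMP 1 and 2 the members' median was -0.03 and 0.05. Scalings by median of ratios, quantiles, edgeR and DESeq2 gave 0.05, 0.03, 0.05 and 0.05, and 5, 5, 6 and 7 members changed sign. With the labelled numbers as a replicate block in limma, 0 members and 0 genes were called, 1055 genes had an unadjusted p under 0.05 beside 2011 with no block, and the median stayed at 0.01. The deviations of same-numbered samples had a correlation of -0.421, and a crossed pairing chosen after seeing the data (high MMP 1 with low MMP 2) called 0 genes in limma and 733 in edgeR, 0 of them members, with 2 members at an unadjusted p under 0.05 in edgeR. With 2 samples per group the SE of a member was 0.08 to 0.22, which sets what could be seen, and the read count was low only for *Ndufb2* and *Ndufb4*.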

Other observations

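Of 20 immediate-early and stress genes, 14 had a difference above 0 between high and low MMP cells, with a median of 0.33, beside 5403 of 12902 genes averaging 10 or more. The direction depended on the libraries, since 19 of the 20 were higher in high MMP 1 than in low MMP 1 (median 0.78) and 8 were higher in high MMP 2 than in low MMP 2 (median -0.51), and the median gap between the low MMP libraries (1 minus 2) was -0.65. Of the 20, 7 had both high MMP libraries above both low MMP libraries (14.3% among all those genes). An unadjusted p under 0.05 (limma) was found for 2 of the 20, a share close to the 9.96% of all genes. *Fosl1*, a subunit of the AP-1 factor, was at 5140 and 5202 normalized reads in high MMP and at 3616 and 4106 in low MMP cells, differing by 0.42 (SE 0.10, unadjusted p = 0.0117, limma). *Egr1*, a zinc finger factor induced by growth signals, was at 10354 and 9783 against 6032 and 8141, differing by 0.52 (SE 0.17, unadjusted p = 0.0377, limma). None of the 20 had an adjusted p under 0.05 (smallest 0.472, limma). *Btg2* had the largest difference, at 436 and 275 against 131 and 287 (0.84, SE 0.46), with overlapping groups.

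Of the 6 genes of mitochondrial DNA for other complexes, 5 had a mean of at least 10, with a median difference of -0.43 and high MMP 1 as the lowest library in all 5. Several had low counts, and the median value over the 6 genes was 19.3 and 41.8 in high MMP 1 and 2 and 41.8 and 38.1 in low MMP 1 and 2. The largest difference in size was that of *mt-Co3*, at 12.1 and 16.7 against 27.9 and 21.2 (-0.73, SE 0.32), from only 16 and 20 against 32 and 24 reads. Farthest from 0 in their lists, the ribosomal *Rps10* was at 163 and 250.2 against 271 and 304 (-0.50, SE 0.24), and the complex IV subunit *Cox6a1* at 1637 and 1915 against 1934 and 2081 (-0.18, SE 0.11). The epithelial marker *Cdh1* was at 3903 and 4726 against 5421 and 5426 (-0.34, SE 0.12, unadjusted p = 0.0491, adjusted p = 0.498, limma).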
